A study of Mus musculus with 2 samples.

Results

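Matrix metalloproteinases and their inhibitors were followed through the cell states of mouse wound monocytes and macrophages. The 8 genes were 6 proteases, Mmp8, Mmp9, Mmp12, Mmp13, Mmp14 and Mmp19, and 2 inhibitors, Timp1 and Timp2. They were taken by symbol, and each matched 1 of the 31053 gene rows. The cells came from skin wounds on day 6 after injury, were freed by enzymatic digestion and were sequenced on the 10x Chromium 3′ platform. There were 2 libraries, 1 from non-diabetic and 1 from diabetic mice, each pooled from 2 mice. The labels speak of mice per strain without naming a strain, the diabetic model, the age or the sex, so diabetes, strain and library cannot be told apart. The pooled mice of a library cannot be told apart either. With 1 library per group there was no test between groups, and every interval given covers counting error at 95% only.

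Matrix metalloproteinases are zinc enzymes that cut collagens, elastin, gelatins and other proteins outside the cell. Most are secreted as inactive precursors and are switched on by removal of a prodomain. Tissue inhibitors of metalloproteinases bind the active site and block it. In skin wounds, macrophages, neutrophils, fibroblasts and keratinocytes all release such enzymes while damaged matrix is cleared and replaced.

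A cell was kept with at least 500 genes and under 10% mitochondrial unique molecular identifiers (UMIs, each counting 1 captured RNA molecule). This left 1123 of 2026 non-diabetic barcodes with 15429273 UMIs and 1755 of 2214 diabetic barcodes with 30435047 UMIs. Median depth was 14079 and 16314 UMIs per cell. The libraries shared 6 barcodes, of which 1 was kept in both. Levels are given in CPM, the UMIs of a gene scaled to 1000000 UMIs of the same cells. Clusters were made without any MMP or TIMP gene and are called by their leading gene. In 11 of the 16 clusters a single library supplied over 90% of the cells, so cluster and library often cannot be told apart. By the marker lists, the Cd163-led and Syngr1-led clusters were macrophage-like, with 8 and 7 of 10 macrophage markers, and the Klrd1-led cluster was dendritic-cell-like. The Clec4b1-led cluster also showed 6 of the 10 macrophage markers, and the Ifit2-led cluster 5 of 8 classical monocyte markers. The Mrgpra2b-led cluster was neutrophil-like, with 8 of 10 neutrophil markers. The labelled cell type was checked with 6 identity genes (Csf1r, Cd14, Cd68, Lyz2, Itgam and Fcgr1), all of which were present in both libraries. A few cells went against it. The filter kept 18 non-diabetic and 26 diabetic cells with 5 or more fibroblast or endothelial marker UMIs, and 4 and 16 cells with 3 or more defining neutrophil marker UMIs.

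Mmp8 (ENSMUSG00000005800), Mmp12 (ENSMUSG00000049723) and Mmp13 (ENSMUSG00000050578) lie on the plus strand of chromosome 9 within 295972 bases (mm10, GENCODE M21). Mmp13 spans chr9:7272514-7283331, Mmp12 spans chr9:7344381-7369499 and Mmp8 spans chr9:7558456-7568485. In the diabetic library these genes and Timp1 (ENSMUSG00000001131, chrX:20870166-20874735, plus strand) had most of their UMIs in the same cluster, so the 120 bases before their starts are shown (RefSeq, GRCm38.p6, plus strand). Capitals mark the AP-1 motif TGANTCA, the site bound by Fos and Jun family factors. The windows are chr9:7272394-7272513 for Mmp13, chr9:7347254-7347373 for Mmp12, chr9:7558309-7558428 for Mmp8 and chrX:20870046-20870165 for Timp1.
Mmp13: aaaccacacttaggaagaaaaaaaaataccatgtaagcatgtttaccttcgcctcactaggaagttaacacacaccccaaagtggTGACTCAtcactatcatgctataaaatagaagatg
Mmp12: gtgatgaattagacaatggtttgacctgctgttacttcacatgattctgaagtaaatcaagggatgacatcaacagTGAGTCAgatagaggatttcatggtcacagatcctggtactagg
Mmp8: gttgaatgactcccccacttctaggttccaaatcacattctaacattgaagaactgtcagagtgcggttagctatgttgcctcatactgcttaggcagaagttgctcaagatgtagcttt
Timp1: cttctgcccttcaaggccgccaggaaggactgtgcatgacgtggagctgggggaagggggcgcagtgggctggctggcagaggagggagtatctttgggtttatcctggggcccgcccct
The Mmp13 and Mmp8 windows were intergenic. The Mmp12 window lay in an intron of a longer Mmp12 transcript, before the downstream of 2 listed starts. The Timp1 window lay in an intron of Syn1, a neuronal gene on the opposite strand. Over the 250 bases before the start, Mmp13 held TGACTCA beginning 35 bases before it, and Mmp12 held TGAGTCA beginning 44 bases before it. No AP-1 match was found for Mmp8, Timp1, Mmp14, Timp2 or the upstream Mmp12 start. Searched on both strands, TGANTCA was present before 6.75% of all 32851 starts in the table. The loose NF-kB motif, a run of G and a pair of C with any bases between, was found before Timp1 with 5 matches, of which 4 overlapped each other. It was also found before the upstream Mmp12 start, and before 45.8% of all starts. The ETS core AGGAAG (29.5% of all starts) was present before Mmp13, Mmp8, Mmp14, Timp1 and the upstream Mmp12 start. The SP1 motif GGGCGG (32.7%) was present before Mmp14, Timp1 and Timp2. Promoter entries matched 6 of the 8 genes, and Mmp9 and Mmp19 had none.

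Over all kept cells, 5 of the 8 genes were at least 2-fold higher in the diabetic library, none was 2-fold lower and 3 were within 2-fold. Among the 12337 genes with at least 20 UMIs, 8.56% were at least 2-fold higher and 6.54% at least 2-fold lower. The median log2 ratio was 1.49 over the 8 genes and 0.12 over all measured genes. These ratios describe 2 libraries, and the genes were picked with earlier results of these libraries known. The cell states that carried each gene are given next, by role.

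**Figure D1:**
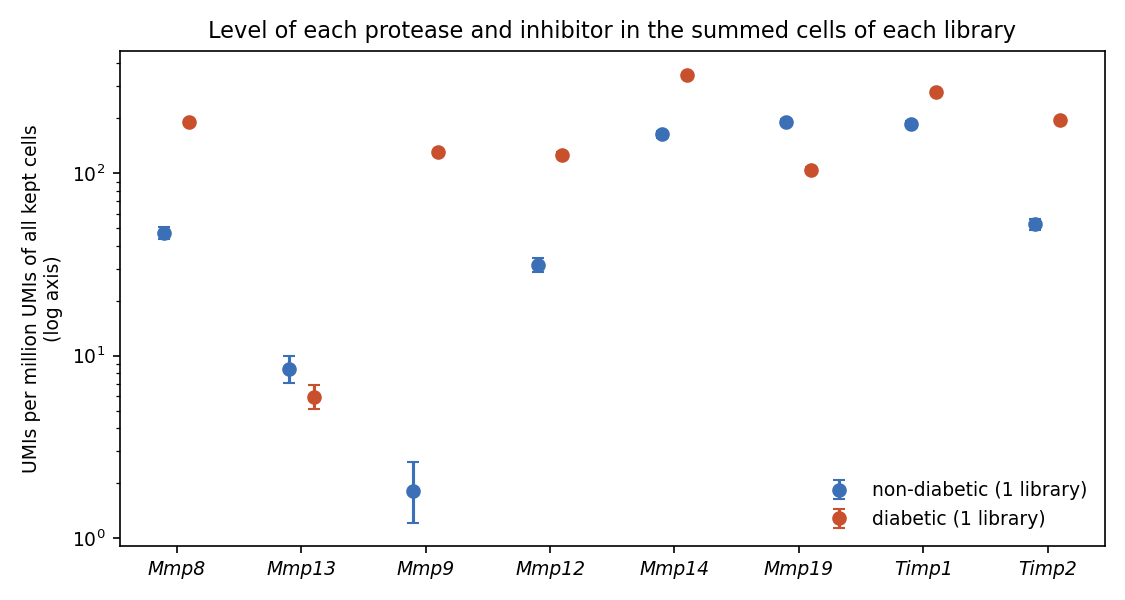
Level of each gene in the summed kept cells of the non-diabetic (blue) and diabetic (red) library, in CPM on a log axis; bars are exact 95% Poisson intervals and cover counting error only. Mmp9 stood at 1.81 against 130.4 CPM, while Mmp13 and Mmp19 were the 2 genes with the higher point in the non-diabetic library.

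Mmp8, the neutrophil collagenase that cuts fibrillar collagen, had 728 UMIs (47.2 CPM) in the non-diabetic and 5832 UMIs (191.6 CPM) in the diabetic library. The ratio was 4.06 (3.76 to 4.39). Non-diabetic Inhba-led, Ifit2-led and Clcf1-led cells stood at 45.6, 38.0 and 36.3 CPM, with overlapping intervals. The Stfa3-led cluster, 312 diabetic cells and 1 non-diabetic cell, held 77.9% of diabetic Mmp8 UMIs at 762 CPM. Without it the log2 ratio between libraries was 0.16 in place of 2.02. After thinning each cell to 2000 UMIs, 7.27% of non-diabetic and 13.7% of diabetic cells had a Mmp8 UMI (23.2% and 28.0% unthinned). In the dendritic-cell-like cells, the comparison for free RNA, the thinned shares were 0.833% and 1.82% (4.96% and 3.57% unthinned), at median depths of 19598 and 18930.5 UMIs.

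The Stfa3-led cluster takes its name from a stefin gene, and its other leading genes included S100a8, Lcn2, Csf3 and Il12a. Its sum over 10 neutrophil markers was 17930 CPM, made mostly of S100a8. The 6 defining neutrophil markers (Ly6g, Cxcr2, Retnlg, Camp, Ltf and Ngp) summed to 7.71 CPM there, with Ly6g at 0, against 3808 CPM in the neutrophil-like cells. The 6 identity genes summed to 7143 CPM in it, against 17491 CPM over the diabetic library. It was given no cell type name. The neutrophil-like cells, 19 in the diabetic library, had 128 Mmp8 UMIs, of which 104 were in 1 cell. Leaving out the cells with 3 or more defining neutrophil marker UMIs gave a log2 ratio of 1.98 for Mmp8.

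Mmp13, collagenase-3, was rare, with 130 non-diabetic UMIs (8.43 CPM) and 181 diabetic UMIs (5.95 CPM). It was 1.42-fold lower in the diabetic library (1.12 to 1.78). Only 35 and 32 cells had a UMI of it. After thinning, 1.38% of non-diabetic and 0.694% of diabetic cells had one, and the diabetic share was the higher in 0 of 20 other draws. Of the non-diabetic UMIs, 46.2% came from the Inhba-led cluster and 26.9% from the Clcf1-led cluster, at 22.1 and 13.5 CPM, whose intervals overlapped. Of the diabetic UMIs, 76.2% came from the Stfa3-led cells at 23.1 CPM, and 46 of the 181 UMIs came from 1 cell with 3023 UMIs in all. The order of the libraries rested on few cells and on the weighting of cells: the mean of per-cell values gave a log2 ratio of 0.70, the opposite direction.

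Mmp9 (ENSMUSG00000017737, chr2:164940780-164955850), gelatinase B, which cuts denatured collagen and basement membrane collagen, differed more between the libraries than the other members. It had 28 UMIs in 14 cells of the non-diabetic library (1.81 CPM) and 3970 UMIs in 340 cells of the diabetic library (130.4 CPM). The ratio was 71.9 (49.7 to 108.3), a log2 ratio of 6.14. With thinned cells, a Mmp9 UMI was found in 0.645% (non-diabetic) and 8.38% (diabetic), against 1.25% and 19.4% unthinned, and the diabetic share was the higher in 20 of 20 other draws. Those draws gave non-diabetic shares of 0.0921% to 0.645%. No UMI was found in the 121 non-diabetic or 56 diabetic cells of the dendritic-cell-like cluster, which allows shares of cells with a UMI of up to 2.48% and 5.36% and sets no limit on cells expressing it. The first limit lies above the non-diabetic library's own 1.25%.

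The diabetic Mmp9 UMIs came from several unlike cell states. The Slc9b2-led cells, 2.74% of the library, held 37.8% of them at 885 CPM. These cells showed 6 of 7 osteoclast and giant cell markers, led by Ctsk (cathepsin K) and Atp6v0d2, together with division genes such as Birc5. Within them 24 of 48 cells had a Mmp9 UMI, and the highest cells had 556, 195, 180 and 163 UMIs. The 13 of them with 10 or more Ctsk UMIs held 1278 of the cluster's 1501 Mmp9 UMIs at 1714 CPM. The other 35 stood at 235 CPM, with 163 of their 223 UMIs in 1 cell. Over the whole library, the 19 cells with 10 or more Ctsk UMIs held 32.5% of Mmp9 UMIs at 1410 CPM, at a median depth of 45026 UMIs. The next clusters were Stfa3-led at 207, Cd163-led at 174 and Syngr1-led at 85.4 CPM, each with an interval clear of the next. The 19 neutrophil-like cells stood at 630 CPM but gave only 134 UMIs. Mmp9 remained far higher in the diabetic library without the Stfa3-led and Slc9b2-led clusters together (log2 ratio 5.14), without neutrophil-marker cells (6.08) and without cells rich in Ctsk (5.95).

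Mmp12 (ENSMUSG00000049723), macrophage elastase, had 486 non-diabetic UMIs (31.5 CPM) and 3837 diabetic UMIs (126.1 CPM). The diabetic level was 3.64 to 4.41 times the non-diabetic one. Few cells made it, but those cells held many copies: 61 non-diabetic and 172 diabetic cells had a UMI, and 13 diabetic cells held 50% of the total. The thinned shares were 2.39% and 4.86% (5.43% and 9.80% unthinned), against 0 of 120 and 3.64% in the dendritic-cell-like cells (2.48% and 12.5% unthinned). Of the diabetic UMIs, 70.7% came from the Stfa3-led cells at 454 CPM, and without that cluster the log2 ratio between libraries was 0.54. The Qpct-led cells, which also led in Lpl and Ccl24, stood higher at 764 CPM, but 366 of their 543 UMIs came from 1 cell. Without that cell they stood at 258 CPM. Among non-diabetic cells the Clcf1-led and Inhba-led clusters held the most UMIs, 142 and 141, at 54.8 and 51.8 CPM with overlapping intervals. The 41 Syngr1-led cells stood higher, at 148 CPM from 78 UMIs in 8 cells, and 1 of the 9 non-diabetic Cd163-led cells held 65 UMIs.

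**Figure D2:**
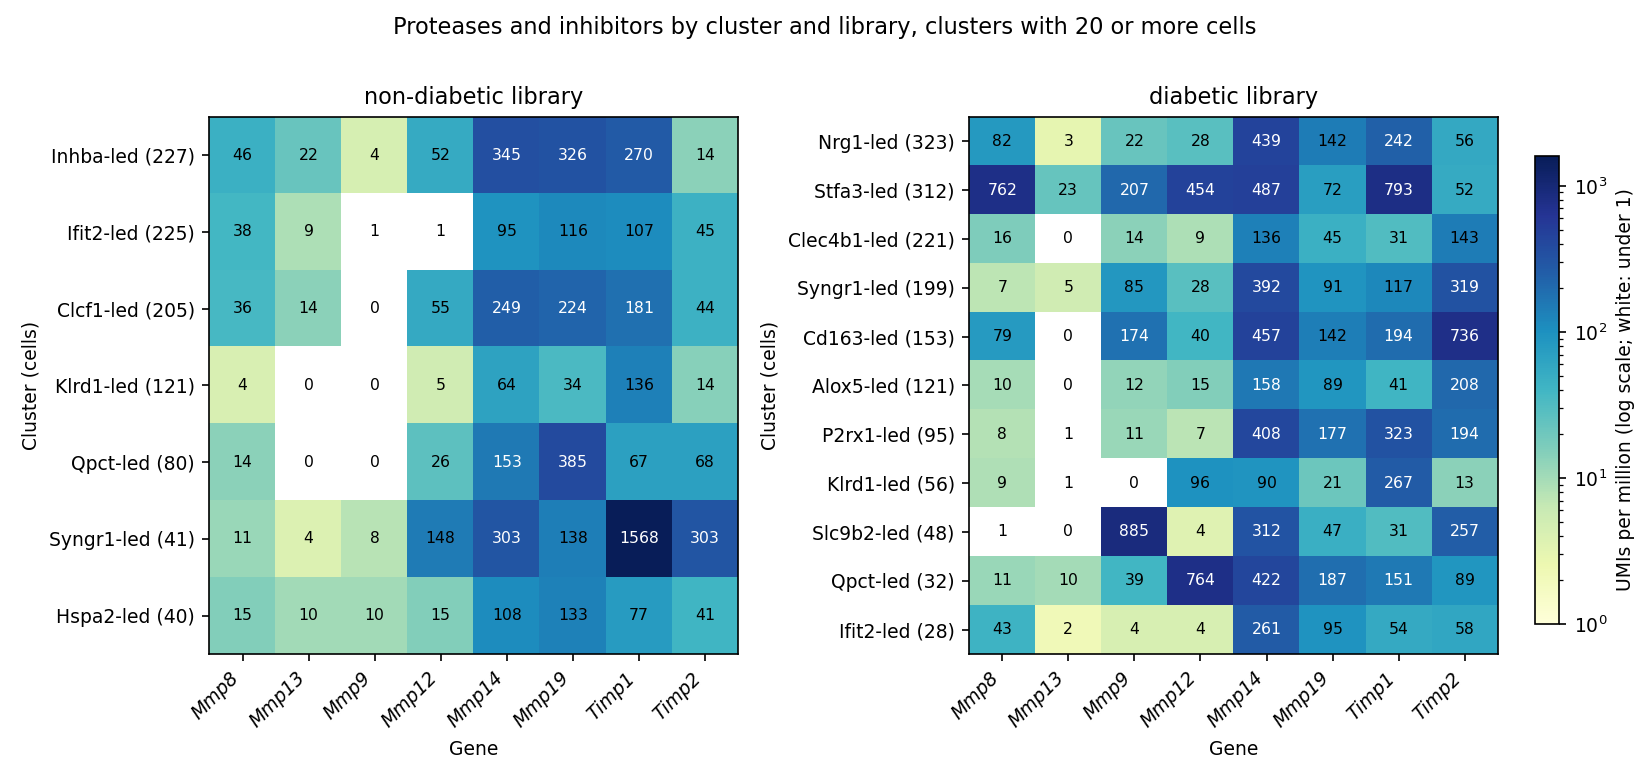
CPM of each gene (columns) in the clusters described with 20 or more cells (rows, cell number in brackets) of the non-diabetic (left) and diabetic (right) library, on a log colour scale. Mmp8, Mmp12, Mmp13 and Timp1 were high in the Stfa3-led cells, Mmp9 in the Slc9b2-led cells and Timp2 in the Cd163-led cells, while Mmp14 was spread over most clusters; 800 of the 828 UMIs behind the non-diabetic Syngr1-led Timp1 value were from 1 cell.

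Mmp14 (ENSMUSG00000000957, chr14:54431612-54445364), the membrane-bound MT1-MMP that activates other MMPs at the cell surface, was found in more cells than the other proteases in the diabetic library, and Mmp19 was in the non-diabetic library. It had 2517 non-diabetic UMIs (163 CPM) and 10552 diabetic UMIs (347 CPM), a ratio of 2.13 (2.03 to 2.22). It was found in 49.9% of non-diabetic and 82.2% of diabetic cells, and after thinning in 25.4% and 44.3%. In the dendritic-cell-like cells the thinned shares were 10.8% and 10.9% (45.5% and 51.8% unthinned). Of the 12 diabetic clusters with 20 or more cells, 6 stood between 392 and 487 CPM: Stfa3-led, Cd163-led, Nrg1-led, Qpct-led, P2rx1-led and Syngr1-led. Each overlapped its neighbour in that order. In the non-diabetic library the Inhba-led cells stood at 345 CPM and the Syngr1-led cells at 303 CPM, with overlapping intervals. To reach 50% took 338 diabetic cells for Mmp14, against 13 for Mmp12. The ratio lay close to 2-fold: the log2 ratio of 1.09 became 0.97 when the median gene was set to 0 and 0.78 as a mean of per-cell values.

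Mmp19 (ENSMUSG00000025355, chr10:128790910-128800824), a secreted protease of basement membrane proteins, was the other widely spread member, and it was lower in the diabetic library. It had 2941 non-diabetic UMIs (191 CPM) and 3186 diabetic UMIs (105 CPM), 1.82-fold lower (1.73 to 1.92). After thinning, 25.7% of non-diabetic and 15.8% of diabetic cells had a UMI (59.8% and 55.0% unthinned), and the non-diabetic share was the higher in 20 of 20 other draws. The dendritic-cell-like cells had a UMI in 9 of 120 and 2 of 55 thinned cells (36 of 121 and 14 of 56 unthinned). Non-diabetic Qpct-led cells stood highest at 385 CPM, followed by Inhba-led at 326 and Clcf1-led at 224 CPM, with intervals apart. Diabetic Qpct-led and P2rx1-led cells stood at 187 and 177 CPM, with overlapping intervals. Without stromal-marker cells these 2 clusters stood at 263 and 180 CPM, with intervals apart. The Stfa3-led cells, high in most other members, stood at 72.4 CPM. The gene overlaps Tmem198b and Gm47093 on the opposite strand, and whether counting used the strand is not recorded in the labels or headers. The same holds for Mmp12 with Mmp1b and for Timp1 with Syn1.

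Timp1, a secreted inhibitor of most MMPs, had 2881 non-diabetic UMIs (187 CPM) and 8494 diabetic UMIs (279 CPM), a ratio of 1.49 (1.43 to 1.56). A single non-diabetic cell held 800 of the 2881. That cell had 1521 Col1a1, 1038 Col3a1 and 180 Dcn UMIs, 5 Csf1r UMIs and no Ptprc or Cd68 UMI, and 74956 UMIs in all. It also held 35 of the library's 37 Mmp2 UMIs and all 34 of its Mmp3 UMIs, MMPs of fibroblasts. Without stromal-marker cells the Timp1 log2 ratio was 1.02 in place of 0.58, just past 2-fold. In the diabetic library the Stfa3-led cells held 55.7% of Timp1 UMIs at 793 CPM, followed by P2rx1-led cells at 323, Klrd1-led cells at 267 and Nrg1-led cells at 242 CPM, of which each overlapped the next. Without the Stfa3-led cluster the log2 ratio was -0.28, the opposite direction. In the non-diabetic library, once the Syngr1-led value of 1568 CPM is set aside as that of 1 cell, the Inhba-led cells stood highest at 270 CPM. The thinned shares of cells with a Timp1 UMI were 16.9% and 20.9% over the libraries (35.3% and 48.1% unthinned). The non-diabetic share lay above all 20 other draws, which gave 14.6 to 16.7%. Timp1 shares were higher in the dendritic-cell-like cells, at 27.5% and 43.6% (57.0% and 75.0% unthinned).

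Timp2 (ENSMUSG00000017466, chr11:118301069-118355740, minus strand), which inhibits MMPs and also takes part with Mmp14 in activating Mmp2, followed a different set of cells from Timp1. It had 813 non-diabetic UMIs (52.7 CPM) and 5931 diabetic UMIs (195 CPM), a ratio of 3.70 (3.44 to 3.98). In the diabetic library the macrophage-like Cd163-led cells, 8.72% of the cells, held 41.8% of its UMIs at 736 CPM, and 150 of these 153 cells had a UMI. The Syngr1-led cells followed at 319 and the Slc9b2-led cells at 257 CPM. The Clec4b1-led cells, which also showed macrophage markers, stood at 143 CPM. The Stfa3-led cells stood at 52.4 CPM. In the non-diabetic library the macrophage-like Syngr1-led cells were highest at 303 CPM, and the next cluster, Qpct-led, was at 68.1. Only 9 Cd163-led cells were non-diabetic, and they had 83 Timp2 UMIs (815 CPM). The thinned shares of cells with a Timp2 UMI were 8.75% and 19.9% (26.0% and 53.5% unthinned), against 3.33% and 0 of 55 in the dendritic-cell-like cells (19.0% and 16.1% unthinned). The 19.9% of the diabetic library lay below all 20 other draws, which gave 20.1 to 22.5%. The Timp2 level of the Syngr1-led cells was 1.05 times as high in the diabetic library (0.892 to 1.25). Timp2 lies over Cep295nl on the same strand, so reads of the shared part cannot be assigned to either with certainty.

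**Figure D3:**
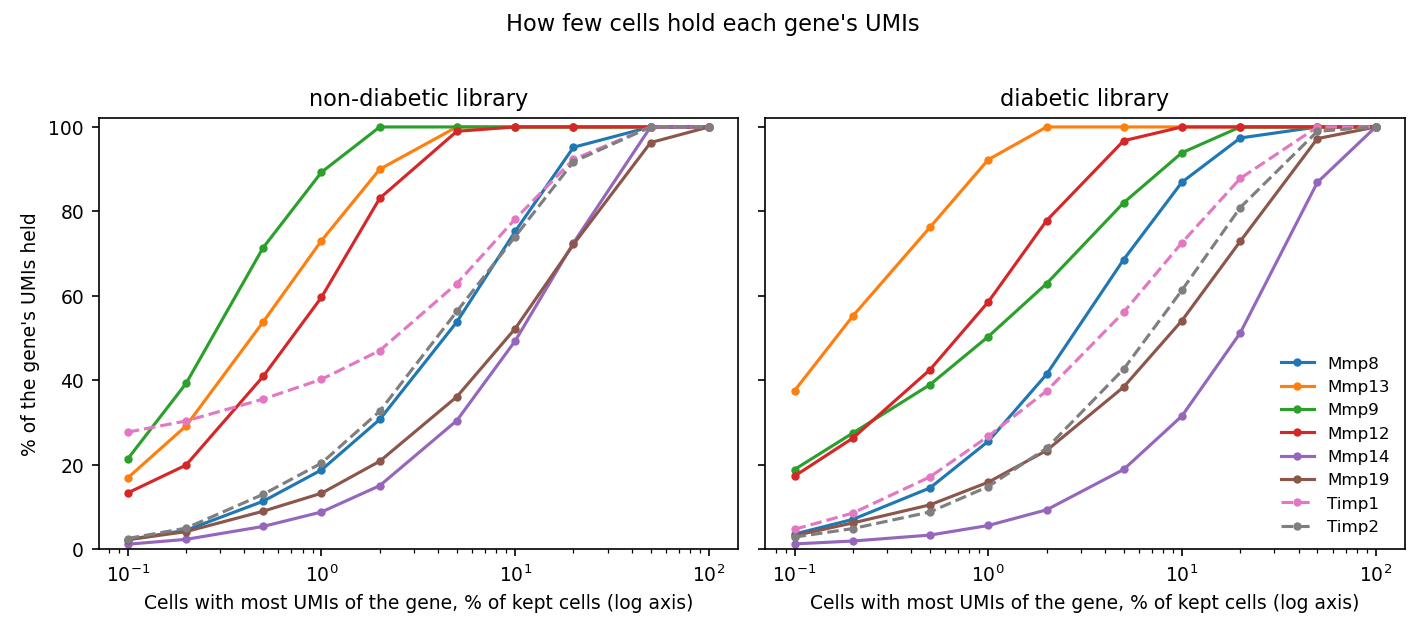
Share of a gene's UMIs (vertical axis, %) held by the cells with most UMIs of it (horizontal axis, % of kept cells, log axis), for the non-diabetic (left) and diabetic (right) library; solid lines are proteases and dashed lines inhibitors. The top 5% of diabetic cells held 96.7% of Mmp12 and 18.9% of Mmp14 UMIs; the raised left end of the non-diabetic Timp1 line is the cell with 800 UMIs.

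Within the Stfa3-led diabetic cells the members were not spread evenly. Cells were thinned to 2000 UMIs, which 308 of the 312 reached. Of 142 cells with a Mmp8 UMI, 21.1% had a Timp1 UMI, and of 166 cells without, 57.8% did. Mmp9 and Mmp12 were found more often beside Mmp8: 29.6% of Mmp8 cells had a Mmp9 UMI against 6.63% of cells without, and 28.2% against 10.2% had a Mmp12 UMI. Mmp14 was found in 63.4% and 60.2%. Timp1 was found in 13.2% of Mmp9 cells and 46.7% of cells without Mmp9, but in 38.6% of Mmp12 cells and 41.4% of cells without Mmp12. With all UMIs and a limit of 5 UMIs, 46 of 151 Mmp8 cells (30.5%) and 95 of 161 other cells (59.0%) reached it for Timp1. These cells are not replicates, the split was looked at after the data were seen, and the clustering at a finer resolution of 2 kept 298 of the 312 cells in 1 cluster.

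The cells with a thinned Mmp8 but no Timp1 UMI (112 cells) and those with Timp1 but no Mmp8 (86 cells) were then compared by all their UMIs. Mmp12 stood at 862 and 141 CPM and Mmp9 at 366 and 71.7 CPM. Mmp13 had 119 UMIs in 8 cells and 3 UMIs in 2 cells, too few cells to compare. This contrast sets Mmp8 and Timp1 against each other by choice. The 40 cells with both had 641 CPM of Mmp12. The draw of the paragraph above gave 30 cells with both, so the sets depend on the draw. Mmp14 (517 and 475 CPM) and Timp2 (55.8 and 56.1 CPM) were nearly level. Lcn2, the lipocalin that binds and stabilises MMP-9, was 3829 and 1225 CPM. Flrt3 went the other way, at 159 and 371 CPM, and so did Areg, the growth factor amphiregulin, at 303 and 665 CPM. The 70 cells with neither a Mmp8 nor a Timp1 UMI had 389 CPM of Flrt3 and 1296 CPM of Areg. Both were thus also high without a thinned Timp1 UMI. Hp was 4731 and 2295 CPM, but S100a9 was nearly level at 654 and 636 CPM. S100a8 was 13096 and 19512 CPM, and Csf3 was 1000 and 887 CPM. Median depth was 17871.5 and 21090.5 UMIs, and Csf1r stood at 418 and 249 CPM. Whether the 2 sets of cells came from different mice cannot be told, since the mice were pooled.

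**Figure D4:**
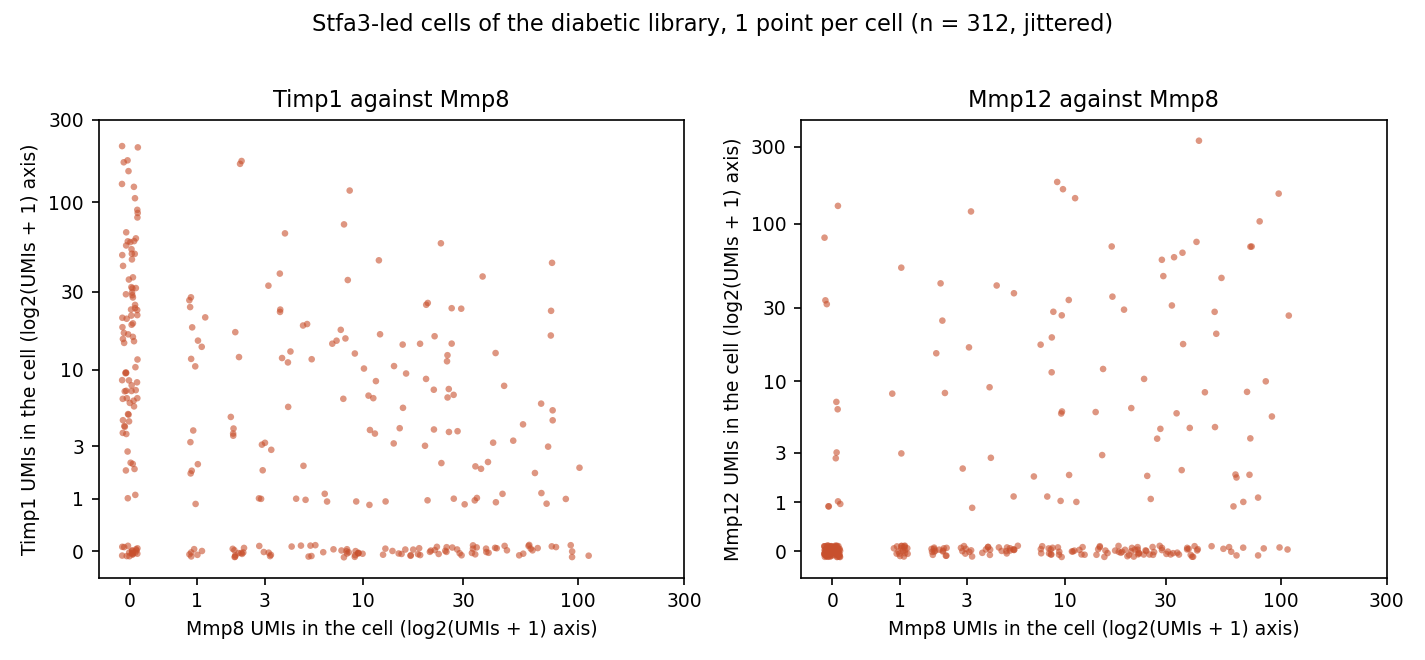
UMIs of Timp1 (left) and Mmp12 (right) against Mmp8 UMIs in each of the 312 Stfa3-led cells of the diabetic library, on log2(UMIs + 1) axes with small random shifts. Of the 25 cells with over 50 Timp1 UMIs, 19 lie at 0 Mmp8, while 75 of the 87 cells with Mmp12 have Mmp8, which 211 of all 312 cells have.

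In the macrophage-like Cd163-led cells, 1 of 12 thinned cells with a Mmp8 UMI had a Timp1 UMI (8.33%, 0.211 to 38.5%), against 34 of 141 without (24.1%). The order was the same as in the Stfa3-led cells, and 12 cells are too few to place the share. Timp2 was found in 57.1% of the Timp1 cells and in 69.5% of the others. Over the whole diabetic library, 51.2% of cells with a Mmp12 UMI had Mmp8, against 11.8% of cells without Mmp12.

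Within a cluster the libraries could be compared in cells grouped by their expression, though stromal-marker cells were among them. The 3 clusters described have 30 or more cells of each library.

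In the macrophage-like Syngr1-led cells (41 and 199), 1 of 7 members was 2-fold higher and 2 were lower, where 5.54% of genes were higher and 8.31% lower. Mmp9 had 4 and 284 UMIs (7.57 and 85.4 CPM), a ratio of 11.3 (4.36 to 41.7). Mmp12 went the other way, with 78 and 93 UMIs (148 and 28.0 CPM), 5.28-fold lower. Timp1 was 13.4-fold lower, but without stromal-marker cells it was 59.7 and 117 CPM, a ratio of 1.96 (1.32 to 3.01) in the opposite direction.

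In the dendritic-cell-like Klrd1-led cells (121 and 56), 1 of 5 members was 2-fold higher and none lower, where 2.89% of genes were higher and 6.67% lower. This was Mmp12, with 12 UMIs in 3 cells and 100 UMIs in 7 cells (5.06 and 96.1 CPM). Timp1 was 1.97-fold higher (1.67 to 2.32), at 136 and 267 CPM. In the Qpct-led cells (80 and 32), 4 of 7 members were 2-fold higher and 1 lower, where 13.1% of genes were higher and 9.74% lower. Mmp12 had 33 and 543 UMIs (26.4 and 764 CPM), and without the top cell of each library it was 13.8 and 258 CPM. Mmp9 had 0 and 28 UMIs and was at least 16.4-fold higher, taking 3 UMIs over the non-diabetic cells as the floor, with an exact lower limit of 12.5-fold. Mmp14 and Timp1 had ratios of 2.76 and 2.24, and Mmp19 was 2.06-fold lower. In this cluster 2 diabetic cells had 699 and 305 endothelial marker UMIs and no Csf1r or Ptprc, and the deeper of them gave 96 of the 300 Mmp14 UMIs. Without stromal-marker cells Mmp14 stood at 155 and 399 CPM (ratio 2.57), Timp1 at 68.3 and 128 (1.88) and Mmp19 at 385 and 263 (0.681). Mmp12 then stood at 26.8 and 1141 CPM, with its top cells still in.

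**Figure D5:**
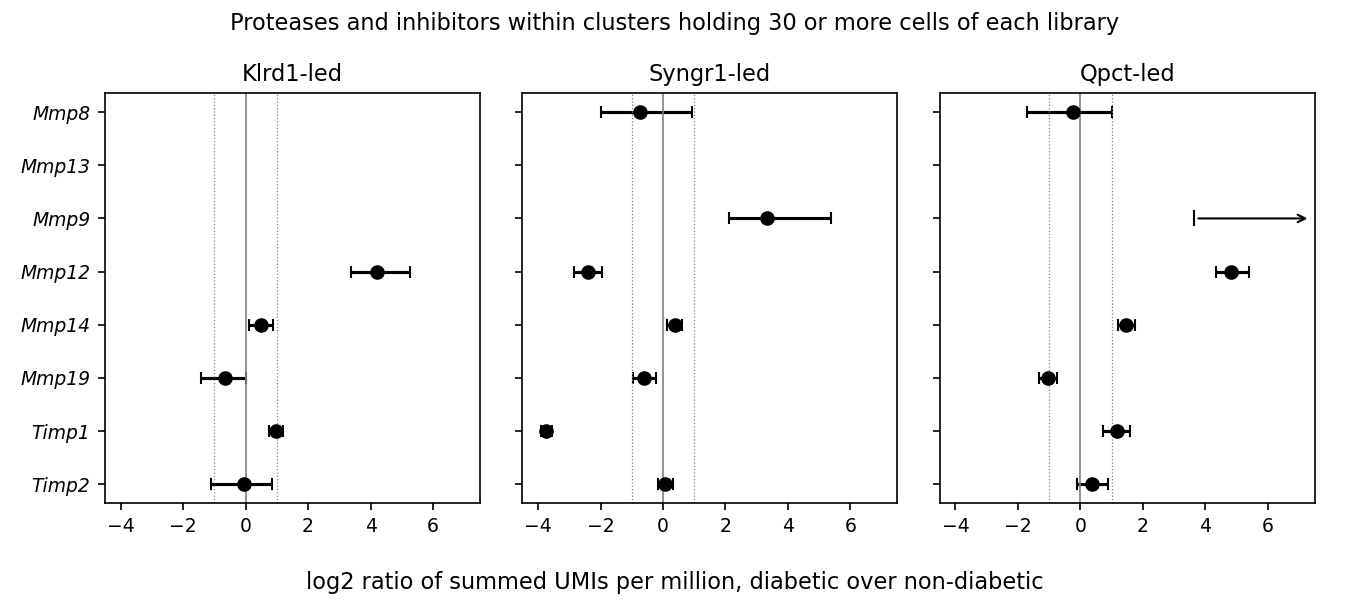
log2 ratio of CPM, diabetic over non-diabetic (horizontal axis), of each measured gene (rows) within 3 clusters with 30 or more cells of each library; bars are 95% counting intervals, dotted lines mark 2-fold and the arrow is the lower limit for Mmp9, which had 0 non-diabetic UMIs. Mmp12 lies at 4.20 and 4.83 in the Klrd1-led and Qpct-led cells and at -2.40 in the Syngr1-led cells; the Syngr1-led Timp1 point at -3.74 rests on 1 non-diabetic cell.

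For each member the 3 genes most like it were taken by Pearson's r of log2(CPM + 10) over the 20 cluster and library groups with 20 or more cells. These values describe groups that share libraries and depth. Mmp8 was closest to S100a9 (0.84), Lcn2 (0.82) and Serpini1 (0.78). Mmp14 was closest to Sdc4 (0.92), Mif (0.88) and Sbf2 (0.87), and Mmp19 to Fn1 (0.89), Ccl9 (0.87) and Rab20 (0.86). Timp2 was closest to Dmxl1 (0.92), Mfsd5 (0.92) and Folr2 (0.91), of which Folr2 is a macrophage marker. Mmp12 was closest to Procr (0.89), Tm4sf1 (0.84) and Plpp3 (0.82), and Mmp13 to Carmil1 (0.86), Nt5e (0.84) and Pcnx (0.84). Mmp9 was closest to Iars2 (0.85), Chchd10 (0.84) and Ahcyl1 (0.84). Timp1 was closest to Ube2o (0.81), Scd2 (0.76) and Crebl2 (0.74), but without stromal-marker cells its 3 were Areg (0.86), Flrt3 (0.81) and Csf3 (0.80). Mmp9, Mmp12 and Mmp13 also exchanged 2 of their 3 genes when stromal-marker cells were left out, and with 1 added in place of 10 all 3 of Mmp8 changed, to Hp, Svil and Pygl.

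Between members, r over the same 20 groups was highest for Mmp12 with Timp1 (0.63) and Mmp9 with Timp2 (0.60), and it was 0.25 for Mmp8 with Timp1 and 0.02 for Timp1 with Timp2. Without stromal-marker cells these values were 0.46, 0.61, 0.42 and -0.24.

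A list of 73 other genes of matrix proteolysis gave 48 with at least 20 UMIs. Of these, 11 were at least 2-fold higher in the diabetic library, 10 lower and 27 within, with a median log2 ratio of 0.07. Over all measured genes, 8.56% were at least 2-fold higher and 6.54% lower. Without stromal-marker cells 7 were higher and 3 lower, and the share over all genes in that set is not given here. The genes were not followed singly there, so which of those named below stayed past 2-fold is not given. Of 17 other MMPs only 5 were measured. Mmp15 (1 and 20 UMIs) and Mmp27 (12 and 66 UMIs) were higher. Mmp2, Mmp3 and Mmp25 (25 and 7 UMIs) were lower, and the first 2 of these came almost wholly from the collagen-rich cell. Among other inhibitors, Slpi, which blocks serine proteases, was 2.53-fold higher at 1850 CPM in the diabetic library, and Timp3 had 12 and 21 UMIs. The 8 measured ADAM and ADAMTS genes had 6 within 2-fold, such as Adam8 (306 and 213 CPM), Adam17 (107 and 153), Adam15 (104 and 122) and Adam10 (105 and 106), while Adamts4 and Adamts9 had 2 and 1 against 27 UMIs each.

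In the plasminogen system, which can activate MMP precursors, Plau (22.2 and 10.7 CPM), Plaur (443 and 221 CPM) and Plat (50 and 40 UMIs) were lower past 2-fold in the diabetic library, Plaur only just. The inhibitors Serpinb2 (107 and 241 CPM) and Serpine2 (9 and 88 UMIs) were higher, while the receptor Plgrkt (79.5 and 90.1 CPM) was within 2-fold. Furin, which cuts the Mmp14 prodomain, stood at 220 and 172 CPM. Pcsk5 had 30 and 0 UMIs, at least 19.7-fold lower against a floor of 3 UMIs, with an exact lower limit of 15.1-fold. Whether Pcsk5, Plau, Plaur and Plat stayed lower without stromal-marker cells is not given. Among 9 receptors and partners, Lcn2 (33.1 and 520 CPM) and the Timp1 receptor Cd63 (154 and 524 CPM) were higher and 7 were within, including Cd44 (997 and 692), Itgam (659 and 627), Itgb2 (364 and 319) and Lrp1 (324 and 408 CPM). Of the cathepsins and elastases, Ctsk was 7.64-fold higher, Prtn3 was 2.22-fold lower, and Ctss, Ctsb, Ctsl and Ctsd were within 2-fold. Of the matrix genes, Col4a1 had 74 and 598 UMIs, and Thbs1, Fn1 and Spp1 were within 2-fold. Col1a1 and Col3a1 were lower, with 1521 of 1545 and 1038 of 1059 non-diabetic UMIs in the collagen-rich cell.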

How the data were processed

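Mouse wound monocytes and macrophages were measured as 2 pooled libraries by 10x Chromium 3′ RNA sequencing. The authors deposited filtered matrices of UMI counts per gene and barcode, made with Cell Ranger 3.0.2 per the file headers, with mm10 per the submitters' processing notes. Counting settings and any earlier removal of cells or doublets are not recorded there. The members and lists were chosen with earlier results of these data known.

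Barcodes were kept when they had 500 or more genes and a mitochondrial share of UMIs below 10%. Scrublet marked 2 and 4 cells (0.178% and 0.228%), too few for it to be relied on, so they stayed in. Counts were normalized per cell and log-transformed. In scanpy 1.11.5, 2000 variable genes without MMP and TIMP genes, 30 components, 15 neighbours and leiden resolution 1 gave the clusters, with no batch correction. Clusters were named by markers, and the leading gene is that with the highest fold among genes found in at least 25% of the cells. Raw counts were summed per library or per cluster and library. The log2 ratio adds 0.5 to each sum and needs 20 UMIs over both libraries. Poisson, ratio and Clopper-Pearson intervals are exact at 95% and cover counting error only. The share of cells with a UMI used a random draw of 2000 UMIs per cell. The ratio and interval were tested on simulated library sums with Poisson counting error, the error that the interval itself assumes. The simulation left out the clumping of UMIs in few cells, so it does not show how the intervals hold for these data. edgeR 4.0.16 and DESeq2 1.42.0 gave only alternative scaling factors, and no count test was run, since each group had 1 library. All 8 members and, of the pathway list, up to 4 genes per role at 20 CPM or more plus those past 2-fold are named, with the 3 genes most like each member. Cells split by Mmp8 and Timp1 were chosen after the data were seen, and so were the sets without stromal-marker cells in clusters, without Ctsk-rich cells and without the Stfa3-led and Slc9b2-led clusters together. Some items, 1 cluster and 1 gene, are not reported here.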

Additional observations from a re-analysis of the deposited data

Results flagged for a closer look

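Mmp12 went in opposite directions between the libraries in different clusters. Its log2 ratio, diabetic over non-diabetic, was 4.20 in the Klrd1-led cells and 4.83 in the Qpct-led cells, but -2.40 in the Syngr1-led cells. Without the top cell of each library and cluster the values were 5.78, 4.19 and -2.39. The first of these rested on 2 non-diabetic UMIs, under the floor of 3, so its size cannot be read. Between 3 and 14 cells of each group had a Mmp12 UMI. The difference between clusters was not tested, since each cluster and library is 1 sample.

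Timp1 did the same, with log2 ratios of 0.98 in Klrd1-led and 1.16 in Qpct-led cells and -3.74 in Syngr1-led cells. The last value rested on the collagen-rich cell with 800 Timp1 UMIs, and without stromal-marker cells Timp1 was 0.97 in the Syngr1-led cells, the same direction as in the others. This difference was not tested either.

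Some members stood higher in barcodes that the filter left out than in the kept cells. Among non-diabetic barcodes with 500 or more genes but 10% or more mitochondrial UMIs, Mmp12 stood at 70.2 and Timp2 at 95.6 CPM. Among such diabetic barcodes Mmp9 stood at 202 CPM, from 214 UMIs in 266 barcodes. In non-diabetic barcodes with under 500 genes Mmp9 stood at 17.8 CPM, from 5 UMIs.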

How the results depend on the processing

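No paired analysis was possible because each group had 1 library. Over 24 alternatives, Mmp8, Mmp9, Mmp12, Mmp14, Mmp19 and Timp2 kept their direction in all. Mmp9 and Timp2 were at least 2-fold higher in every one, at log2 4.58 to 8.66 and 1.43 to 2.14. The count of 5 members at least 2-fold higher became 2 without the Stfa3-led cluster, and 2 without both it and the Slc9b2-led cluster. The count of 0 members lower became 1 without the Klrd1-led cluster, as a mean of per-cell values and after thinning (Mmp19), and 1 without the Stfa3-led cluster, alone or with the Slc9b2-led cluster (Mmp13). Mmp13 reversed to 0.45 after thinning, 0.70 as a mean of per-cell values and 0.11 without the Inhba-led cluster. Timp1 reversed to -0.28 without the Stfa3-led cluster and -0.21 without it and the Slc9b2-led cluster. The cause was not tested.

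The 11 pathway genes higher became 7 without cells above the 98th percentile of UMIs, 5 after thinning, 6 as a mean of per-cell values, 6 with at least 100 UMIs, 7 without stromal-marker cells, 6 without the Stfa3-led cluster and 7 without both clusters. The 10 lower became 4 without the deepest cells, 4 after thinning, 5 with at least 100 UMIs, 3 without stromal-marker cells, 3 without the Syngr1-led cluster and 3 without Ctsk-rich cells. The collagen-rich cell, Syngr1-led, with 15 Ctsk UMIs and the most UMIs of its library, was left out with the deepest, stromal-marker, Syngr1-led and Ctsk-rich cells alike. These settings are therefore not separate checks. Over all genes, 1056 higher and 807 lower became 559 and 467 after thinning, 2212 and 2450 with no minimum and 559 and 432 with at least 100 UMIs. Fewer genes reach the minimum under thinning and at 100 UMIs. Centring on the median gene moved every log2 ratio by 0.12.

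Under 5 other clusterings, a Stfa3-led cluster again held the largest share of the diabetic UMIs of Mmp8, Mmp12, Mmp13, Mmp14 and Timp1, and a Cd163-led cluster that of Timp2. Slc9b2-led cells did so for Mmp9 in 4 of the 5. Other carriers moved. The non-diabetic Timp1 carrier held at most 1 Syngr1-led cell in all 5. The non-diabetic Mmp12 carrier had another leading gene in all 5. It still held all 205 Clcf1-led cells at resolution 0.5 and 177 with 1000 variable genes, but only 67 to 74 at the other settings. Non-diabetic Timp2 was carried by a Cd163-led or Igf1-led cluster in 4 of 5. Diabetic Mmp19 went to a Cd163-led cluster at resolution 2. Non-diabetic Mmp9, Mmp13, Mmp14 and Mmp19 were carried by clusters with another leading gene in 3 of 5. Where that cluster was Sema3c-led, it held 226 of the 227 Inhba-led cells. For Mmp13 and non-diabetic Mmp9, with 181 UMIs or fewer, depth limits any statement.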
